A study of Mus musculus with 4 samples.

Results

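The regions described here are m6A peaks made of 2 or more exonic blocks, that is, enriched stretches of RNA that cross at least 1 gap in the genome. They were taken from 2 peak lists, 1 of control and 1 of Wtap knockout mouse hearts, as every peak with a block count of at least 2. They are called multi-block peaks below, and the peaks with 1 block of the same list, called single-block peaks, are the comparison. Multi-block peaks made up 4405 of 20766 control peaks and 4930 of 21179 knockout peaks, 9335 of 41945 in all. They lay in 3498 of 10734 genes with a control peak and in 3898 of 10904 genes with a knockout peak.

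N6-methyladenosine (m6A) was mapped by MeRIP-seq, in which an antibody against the mark enriches RNA fragments of about 100 nt, and the enriched RNA (IP) and the unselected input are both sequenced. Controls were Wtapflox/flox mice, which carry floxed Wtap alleles, and knockouts were Wtap-CKO mice, all 4 days old and sampled as hearts. RNA was pooled from 7 control and from 8 knockout hearts, and each pool gave 1 IP and 1 input library, so the 4 libraries hold no replicates. No difference between the lists therefore has a replicate check, no test between genotypes was made, and the exact 95% binomial intervals printed beside shares reflect counting error alone, with each peak treated as independent. The Cre driver of the knockout was not stated in the sources used here. Depth is unknown, because the lists hold no read counts. Coordinates refer to mouse build GRCm39. The place of blocks in coding sequence or UTR was not analysed here.

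m6A is written on nascent RNA by a complex around METTL3 and METTL14, and WTAP is a regulatory subunit that holds the complex at nuclear speckles. In mammalian mRNA the mark is concentrated in long internal exons, in last exons and around stop codons, and it is sparse close to exon junctions, where exon junction complexes are deposited on spliced RNA. A peak caller that works along joined exons, as exomePeak does, can place 1 peak over several exons, and the blocks of such a peak show which exons it covers and where it crosses from one to the next. Sequences of the peaks are not shown, since no genome of this build was used.

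All 8 cardiomyocyte markers checked, among them Myh6, Tnnt2 and Ttn, carried a peak in each list, and 7 of the 8 carried a multi-block peak in each. All 6 endothelial markers carried a peak in each list, as did 5 of 6 fibroblast markers in the control list and 6 of 6 in the knockout list. A multi-block peak was found in 3 of 6 endothelial markers in each list, in 2 (control) and 6 (knockout) of the 6 fibroblast markers, and in 2 and 3 of 5 smooth muscle and pericyte markers. Of 4 immune markers 1 carried a peak in each list, and Ptprc, Cd68 and Adgre1 carried none. A peak is a ratio of IP to input and not a level of RNA, so these counts only show that heart transcripts were sampled. In RNA of a whole organ, fewer cells of a type and less RNA per cell cannot be told apart.

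Wtap itself, the targeted gene, carried 1 multi-block peak, in the control list. It lay on the minus strand at chr17:13194136-13199722 and joined a 5′ block of 14 bases to a 3′ block of 226 bases across a gap of 5347 bases, with a fold of 6.82. Fold is the authors' ratio of IP over input for a peak, and the log10 p and log10 q of a peak are also the authors'. The overlapping knockout peak had 1 block of 151 bases and a fold of 3.13. The called control peak therefore included a block of 14 bases that the knockout peak did not, but a peak remained in both, and neither value checks the deletion. Whether knockout reads covered those bases cannot be read from the lists.

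Multi-block peaks were a somewhat larger share of the knockout list than of the control list. They were 21.2% of control peaks (95% interval 20.7 to 21.8) and 23.3% of knockout peaks (22.7 to 23.9). Most crossed a single gap. Of the control multi-block peaks, 3439 (78.1%) had 2 blocks, 665 had 3, 180 had 4 and 121 had 5 or more. Of the knockout ones, 3780 (76.7%) had 2 blocks, 802 had 3, 207 had 4 and 141 had 5 or more. The 2 lists thus had nearly the same spread of block numbers.

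Wider and stronger peaks were more often multi-block. In peaks under 150 exonic bases the multi-block share was 10.8% in the control and 12% in the knockout list, and in peaks of 600 bases or more it was 28.5% and 30.6%. Fold, overlap between the lists and the multi-block share of gene groups were therefore also compared within classes of width below. Place in the gene, gaps, block side and the peaks of gene groups without a counterpart were not. Median exonic width was 327 bases in control multi-block peaks against 270 in single-block peaks, and 271 against 240 in the knockout list. Median log10 q was -15.7 against -7.97 in the control list and -13.1 against -6.59 in the knockout list. The knockout share was above the control share in each of the 4 width classes.

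**Figure D1:**
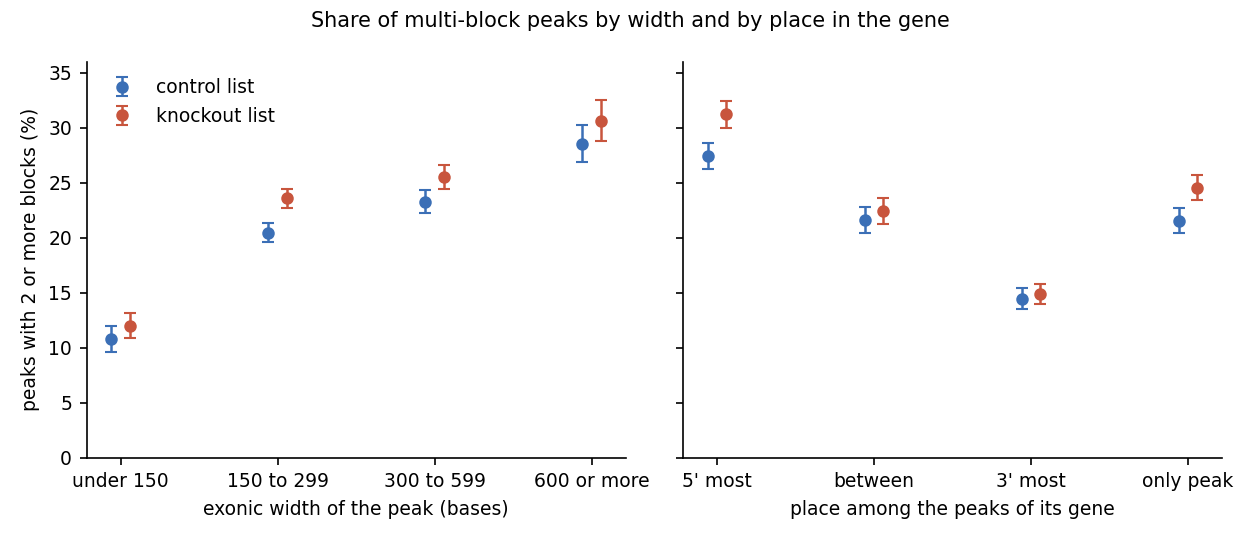
Percent of peaks with 2 or more blocks by exonic width of the peak in bases (left) and by its place among the peaks of its gene from 5′ to 3′ (right), for the control list (blue) and the knockout list (red), with exact 95% binomial intervals. The share grows with width in both lists, from 10.8% to 28.5% and from 12% to 30.6%, and is lowest in the 3′ most peaks, at 14.4% and 14.9%.

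The median folds of multi-block and single-block peaks lay close together. Control multi-block peaks had a median fold of 6.95 (interval by order statistics 6.77 to 7.22) and single-block peaks one of 7.22 (7.10 to 7.31). In the knockout list it was 7.41 (7.11 to 7.58) against 7.03 (6.88 to 7.09). This order did not hold at like width: knockout multi-block peaks had the higher median in 1 of the 4 width classes (8.91 against 8.63 from 300 to under 600 bases), the same in another and the lower in the other two, for example 12.2 against 13.1 at 600 bases or more. In the control list multi-block peaks had the lower median in all 4 width classes, for example 11.1 against 12.5 at 600 bases or more.

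Multi-block peaks were concentrated toward the 5′ side of a gene's peaks. In genes with more than 1 peak, the 5′ most peak was multi-block in 1494 of 5453 control cases (27.4%) and 1763 of 5649 knockout cases (31.2%). The 3′ most peak was multi-block in 786 (14.4%) and 841 (14.9%). Peaks lying between them were at 21.6% and 22.4%, and peaks that were the only one of their gene at 21.5% and 24.5%. The knockout share was the higher one at all 4 places, by most at the 5′ most peaks (interval 30 to 32.4 against 26.2 to 28.6) and by least at the 3′ most ones. In genes with exactly 2 peaks the order was the same, 27.3% against 16.5% in the control and 30.6% against 17.3% in the knockout list.

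The gaps that peaks crossed were mostly longer than the blocks beside them. The control multi-block peaks held 5948 distinct gaps with a median of 894 bases (quartiles 258 and 2838), and the knockout ones 6788 with a median of 855 (quartiles 234 and 2942). Gaps under 30 bases were few, 65 and 88, and 493 and 613 were over 10000 bases. The 2 lists had 4312 gaps in common at both ends, which was 72.5% of the control and 63.5% of the knockout gaps. Gaps found in the control list only had a median of 1156 bases and those found in the knockout list only 947, against 800 for gaps in both.

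Most multi-block peaks reached only a short way past a junction. The smallest block had a median of 39 bases in the control and 42 in the knockout list, and it was under 10 bases in 16.4% and 16% of multi-block peaks. The largest block held a median of 79.3% of the exonic bases in the control and 75.8% in the knockout list. The blocks inside peaks of 3 or more blocks, which are bounded by a gap on each side, had a median of 119 bases in each list. Exonic widths were within 1 base of a multiple of 30 in 84.3% of control and 85% of knockout peaks, so that block ends other than those at gaps lie on a grid and the smallest blocks are known no more finely than that.

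Peaks of 10 or more blocks were rare, 9 in the control and 15 in the knockout list, and those with most blocks in each list lay in Eln. Eln, which encodes elastin, had a peak of 22 blocks in the control list (fold 7.73) and 24 in the knockout list (fold 9.10), over a span of 19352 and 20542 bases on chromosome 5. Both peaks began with the same 21 blocks from the 5′ side, of 39 to 181 bases. They differed at the 3′ end, where the control peak ended with a block of 38 bases and the knockout peak went on with blocks of 45, 30 and 23 bases.

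The myosin heavy chain genes likewise had peaks of more blocks in the knockout list. Myh7b had 18 blocks in the control and 20 in the knockout list, Myh6, the adult cardiac α heavy chain, 17 and 18, and Myh7, the β heavy chain, 15 and 16. In all 3 genes the knockout peak reached further at the 5′ end, and in Myh7 and Myh7b also at the 3′ end. The Myh6 peak had a log10 p of -11600 (control) and -16500 (knockout). Myh6 and Myh7 are close paralogs that lie side by side, and the assignment of reads common to them was not stated, so values of the pair are uncertain. The Myh7 peak also overlaps a peak of the antisense RNA Mhrt in each list.

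Several genes held many multi-block peaks. Chd4, Crocc, Card10, Col4a2, Rrbp1 and Sptb each had 6 multi-block peaks in the control list, and Crocc and Pcnt each had 7 in the knockout list. These genes encode a chromatin remodeller (Chd4), centrosome and rootlet proteins (Pcnt, Crocc), a collagen (Col4a2) and a spectrin (Sptb), all long multi-exon transcripts.

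The type IV collagens Col4a1 and Col4a2, which form basement membranes, held several long peaks whose ends and joins differed between the lists. For Col4a1 the control list had neighbouring peaks of 12 and 3 blocks (1320 and 331 exonic bases) where the knockout list had 1 peak of 15 blocks (1740 bases). A further Col4a1 peak had 13 blocks in the control and 15 in the knockout list, with folds of 3.67 and 4.16. For Col4a2 the control list had peaks of 8 and 4 blocks, with folds of 4.64 and 2.26, where the knockout list had 1 peak of 16 blocks and a fold of 5.97. A further Col4a2 peak had 13 and 16 blocks with folds of 4.30 and 4.28, and 2 Col4a2 peaks of 5 and 3 blocks had the same gaps in both lists. Col3a1, a fibrillar collagen, had 8 blocks (control) and 9 blocks (knockout).

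Whether a multi-block peak had a counterpart in the other genotype was asked next. A counterpart is a peak of the other list that shares 1 exonic base or more with it and has the same strand. Of the control multi-block peaks, 571 (13%, interval 12 to 14) had none, against 4402 single-block peaks (26.9%), and 23.9% over all control peaks. Of the knockout multi-block peaks, 1103 (22.4%, 21.2 to 23.6) had none, against 4077 single-block peaks (25.1%), and 24.5% over all knockout peaks. Multi-block peaks found in the knockout list alone were therefore more numerous than those found in the control list alone, while for single-block peaks the control list had slightly more. Of the peaks without a counterpart, 11.5% were multi-block in the control and 21.3% in the knockout list.

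These single-list peaks were mostly narrow and weak. Their median width was 181 bases (control) and 180 bases (knockout), where multi-block peaks with a counterpart had 331 and 330, and their median log10 q was -3.74 and -3.67. Of them, 408 of the 571 control ones (71.5%) and 755 of the 1103 knockout ones (68.4%) lay in genes that had some peak in the other list. The share without a counterpart depended strongly on q. At a log10 q above -3 it was 47% in control and 70.7% in knockout multi-block peaks, and at a log10 q of -50 or below it was 2.58% and 0.41%.

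At equal strength, outside the strongest q class, the 2 lists ordered the peak types in opposite ways. In the control list multi-block peaks lacked a counterpart less often than single-block peaks in each of the 4 q classes and each of the 4 width classes. In the knockout list they lacked one more often in the 3 weaker q classes, for example 37.4% against 29% between log10 q -3 and -10, and in 3 of the 4 width classes. The exception was the class from 300 to under 600 bases, at 4.46% against 5.49%, and at 600 bases or more the shares were 0.545% and 0.421%. The overall knockout share of 22.4% was nonetheless below that of single-block peaks. Multi-block peaks were stronger and wider as a whole, and the part of this in the overall share was not tested. No test of the difference between the lists was possible.

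**Figure D2:**
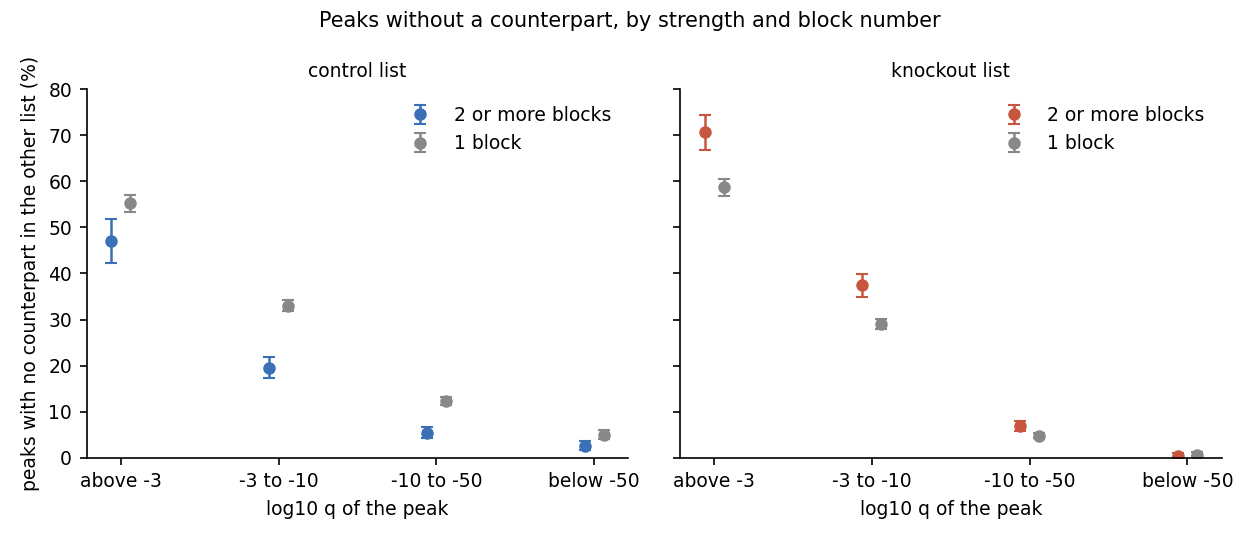
Percent of peaks with no counterpart in the other list by log10 q of the peak, for multi-block peaks (coloured) and single-block peaks (grey) of the control list (left) and the knockout list (right), with exact 95% binomial intervals. Coloured points lie below grey ones throughout the control panel, and above them in the 3 weaker classes of the knockout panel, from 70.7% against 58.7% at the left.

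Among strong peaks, taken as q at or under 1e-10, a threshold chosen after the data were seen, the contrast was in the single-block peaks. Control peaks without a counterpart numbered 116 of 2699 multi-block (4.30%) and 753 of 7266 single-block (10.4%), with 8.72% over all strong control peaks. Knockout peaks without a counterpart numbered 131 of 2831 multi-block (4.63%) and 238 of 6311 single-block (3.77%), with 4.04% over all strong knockout peaks. Strong single-block peaks were thus found alone far more often in the control list than in the knockout list, while strong multi-block peaks were found alone in nearly equal numbers. Of strong peaks without a counterpart, 13.3% (11.2 to 15.8) were multi-block in the control and 35.5% (30.6 to 40.6) in the knockout list, against 27.1% and 31% of all strong peaks.

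Where a multi-block peak did have a counterpart, the same junction was usually crossed in both genotypes. Of 3834 control multi-block peaks with a counterpart, 3125 (81.5%) had at least 1 gap identical at both ends, and 2282 (59.5%) had exactly the same gaps as a single counterpart. Of 3827 knockout ones, 3100 (81%) had a gap in common and 2306 (60.3%) exactly the same gaps. In only 36 peaks of each list did the counterparts cross other gaps alone. The remaining 673 control (17.6%) and 691 knockout (18.1%) multi-block peaks had counterparts with 1 block, so a peak that crossed a junction in one list and stopped before it in the other was about as common in each direction.

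The 6 strongest peaks with the same gaps in both lists lay in Tnnt2, Atp2a2, Myl3, Ybx1, Gnas and Mrpl12. Tnnt2, which encodes cardiac troponin T, had an 8-block peak at chr1:135773246-135777306 with blocks of the same sizes in both lists, from 12 to 219 bases, and folds of 5.46 (control) and 7.52 (knockout). Atp2a2, the sarcoplasmic reticulum calcium pump, had a 2-block peak at chr5:122639010-122640288 with a 5′ block of 658 bases and a 3′ block of 2 bases in both lists, and folds of 9.25 and 12.5. In Atp2a2 the crossing thus rested on 2 bases past the junction. Myl3, a ventricular light chain, had 3 blocks with folds of 2.60 and 2.57.

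Ybx1, an RNA-binding protein, had blocks of 401 and 17 bases in both lists and folds of 22.5 and 15.5. Gnas, the stimulatory G protein α subunit, had 4 blocks with folds of 6.90 and 11.7, at a locus where another peak of the same list overlaps on the opposite strand. Mrpl12, a mitochondrial ribosomal protein, had blocks of 19 and 483 bases in the control list and of 19 and 454 in the knockout list, with folds of 6.99 and 3.42. Neither list was thus uniformly higher in fold among these peaks, and since each list was called on its own libraries, folds of the lists are set side by side only.

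Peaks that crossed a junction in one list and had 1 block in the other differed in side between the lists. Of the 2-block peaks of this kind, the longer block was the 3′ one in 450 of 645 control peaks (69.8%, 66.1 to 73.3) and in 307 of 649 knockout peaks (47.3%, 43.4 to 51.2). In the control list Calu, which encodes a calcium-binding protein of the secretory pathway, had blocks of 22 and 338 bases, and its knockout counterpart had 1 block of 300 bases. Tns1, a focal adhesion protein, had blocks of 25 and 725 bases in the control list against 1 block of 600 in the knockout list. Synpo2l, a Z-disc protein, had blocks of 94 and 534 bases against 1 of 389. In these 3 genes and in 5430431A17Rik the control peak extended the 3′ block of the pair to the 5′ side.

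Of the 4 strongest knockout peaks of this kind, 3 had the short block on the 3′ side. Nppa, which encodes atrial natriuretic peptide, had blocks of 233 and 6 bases in the knockout list and 1 block of 210 in the control list. A Myl3 peak other than the one above had 255 and 12 bases against 1 block of 178, and Pgrmc2, a progesterone receptor membrane component, 452 and 25 bases against 1 block of 447. Hsp90ab1, a cytosolic chaperone, went the other way, with 17 and 524 bases against 1 block of 511. The Nppa peaks had folds of 3.89 in the knockout and 3.76 in the control list, each a value of the whole peak.

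The side of the longer block was then examined over all peaks with 2 blocks. The 3′ block was the longer one in 55.8% of 3439 control and 47.1% of 3780 knockout peaks. Among strong peaks with a counterpart it was 61.6% in the control and 50.1% in the knockout list. Among strong peaks without a counterpart it was 95 of 110 in the control list (86.4%, interval 78.5 to 92.2) and 29 of 100 in the knockout list (29%, 20.4 to 38.9). These strong single-list peaks had median 5′ and 3′ blocks of 39.5 and 282 bases in the control list and of 150 and 81.5 bases in the knockout list. Control-only peaks of this kind were thus mostly wide 3′ blocks with a short stretch before the junction, and knockout-only ones mostly 5′ blocks with a shorter stretch after it.

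The direction held when very short blocks were left out. Among strong single-list peaks whose smaller block had at least 30 bases, the 3′ block was the longer one in 50 of 56 control (89.3%) and 20 of 76 knockout peaks (26.3%). Among single-list peaks of q over 1e-10 the contrast was smaller, 50.9% of 397 control and 42.4% of 864 knockout peaks. Place in the gene moved with it: the strong control-only multi-block peaks were the 3′ most peak of their gene in 35 of 116 cases (30.2%), against 18 of 131 (13.7%) of the strong knockout-only ones. These totals include peaks that were the only one of their gene and could not be counted as 3′ most. Such peaks were 30.2% of the control-only and 46.6% of the knockout-only ones. Of strong single-block peaks found in 1 list, 38% of the control and 25.2% of the knockout ones were the 3′ most, and of strong shared multi-block peaks 22% and 20.5%. The parts of gene position and of peak width in the contrast were not tested.

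**Figure D3:**
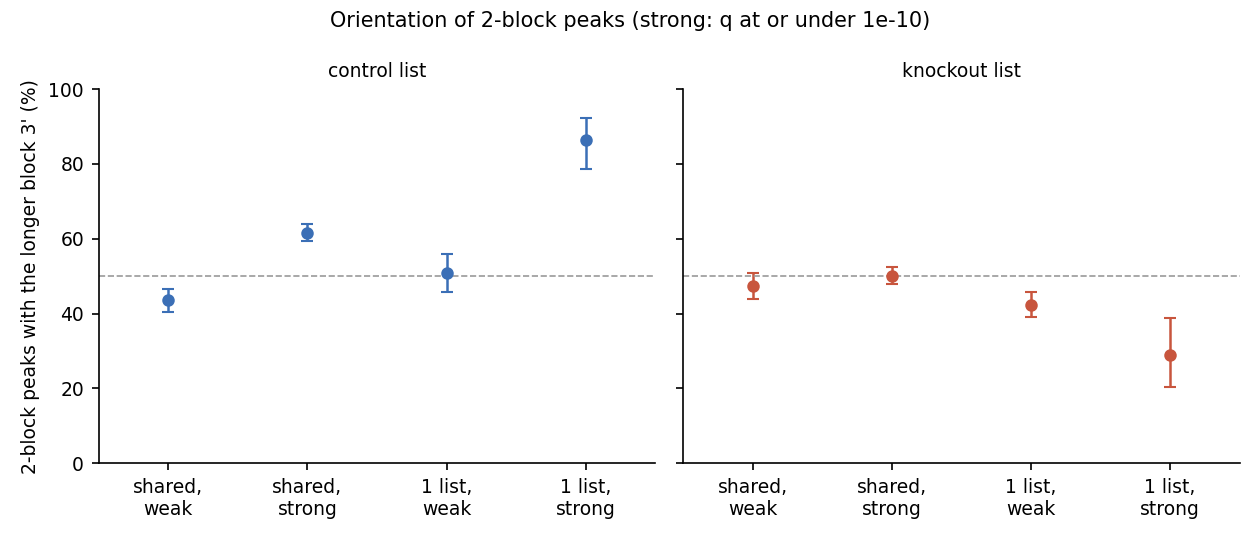
Percent of 2-block peaks whose 3′ block is longer, for peaks with a counterpart (shared) and without one (1 list), weak (q over 1e-10) and strong (q at or under 1e-10), in the control list (left) and the knockout list (right), with exact 95% binomial intervals and a dashed line at 50%. The strong peaks of 1 list lie at 86.4% in the control and 29% in the knockout panel, on opposite sides of the line.

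The 6 strongest control-only multi-block peaks lay in Popdc2, Chchd3, Slc8a1, Ankrd1, Eif4ebp1 and Lmo7. Popdc2, a cyclic AMP-binding membrane protein of heart muscle, had the smallest p, at chr16:38194405-38198548, with blocks of 335 and 532 bases, a fold of 9.47 and a log10 p of -1660. Slc8a1, the sodium-calcium exchanger, had blocks of 46 and 465 bases across a gap of 20362 bases (fold 6.84). Ankrd1, a muscle ankyrin repeat protein, had blocks of 36 and 292 bases (fold 2.19). All 3 had a longer 3′ block, and no knockout peak of the same strand overlapped them.

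The other 3 of the control list each had 2 blocks, with the longer one on the 3′ side. Chchd3, a protein of mitochondrial cristae, had blocks of 27 and 453 bases and a fold of 3.98. Eif4ebp1, a repressor of cap-dependent translation, had blocks of 97 and 409 bases and a fold of 3.52, and this was the only peak of the gene in that list. The knockout list also had 1 Eif4ebp1 peak, of 3 blocks, which did not overlap the control one. Lmo7, an adherens junction and nuclear protein, had blocks of 13 and 257 bases and a fold of 4.94. Ppara, a receptor that drives fatty acid oxidation genes, also had a strong control-only peak, with blocks of 20 and 581 bases and a fold of 19.5.

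The 6 strongest knockout-only multi-block peaks lay in Myl2, Atpif1, Acta1, Ndufb1, Acta2 and Gpx3. Myl2, the ventricular regulatory light chain, had a 4-block peak at chr5:122239736-122241246 with blocks of 10, 90, 76 and 5 bases, a fold of 1.90 and a log10 q of -176. A further Myl2 peak, of 3 blocks and nearer the 5′ side, was found with the same gaps in both lists, with folds of 4.72 and 5.64. Acta1, skeletal α-actin, had 3 blocks of 30, 90 and 87 bases (fold 3.63), and Acta2, smooth muscle α-actin, had blocks of 106 and 73 bases (fold 5.30). These actin genes are close paralogs, so reads of one may be counted for another.

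The other 3 had 2 or 3 blocks. Atpif1, the inhibitor of the mitochondrial ATPase, had blocks of 55 and 181 bases and a fold of 2.12. Ndufb1, a complex I subunit, had 3 blocks of 60, 145 and 3 bases and a fold of 2.18. Gpx3, an extracellular glutathione peroxidase, had blocks of 137 and 43 bases and a fold of 2.92. The 6 strongest knockout-only peaks had folds of 1.90 to 5.30, the 6 strongest control-only peaks folds of 2.19 to 9.47. Acta2 carried no peak of any kind in the control list.

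**Figure D4:**
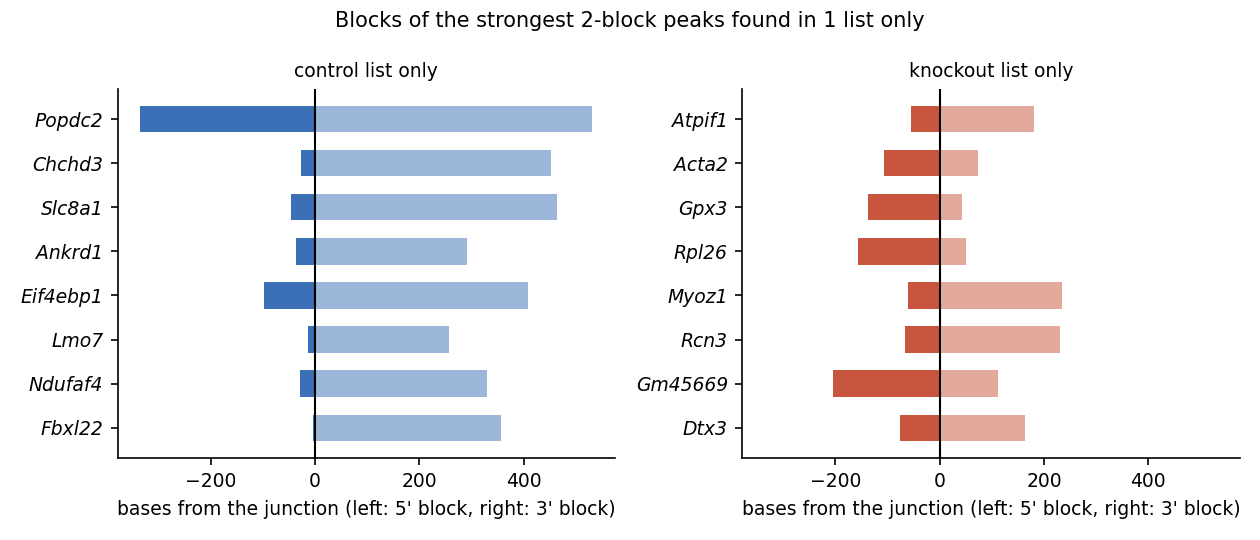
Block sizes in bases of the 8 strongest 2-block peaks found in the control list only (left) and in the knockout list only (right), drawn with the junction at 0, the 5′ block to its left and the 3′ block to its right. All 8 control peaks have the longer block on the 3′ side, from Popdc2 with 335 and 532 bases to Fbxl22 with 3 and 357, while Acta2, Gpx3, Rpl26 and Gm45669 of the knockout list have it on the 5′ side.

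Of the 8 knockout peaks in the plot of blocks by junction, 4 had the longer block on the 3′ side, beside 29 of 100 strong knockout-only 2-block peaks. With 8 peaks the side is only described. Rcn3 and Gm45669 in that plot lie on opposite strands of the same stretch of chromosome 7, and reads of antisense genes cannot be told apart where counting does not use strand. Over all multi-block peaks, 13.2% in the control and 12.8% in the knockout list overlapped another peak of their list on either strand, against 11.4% of single-block peaks in each list.

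The multi-block peaks with the largest folds were taken among those of smallest q. In the control list Cdk9, the kinase of transcription elongation, had a 2-block peak with a fold of 117, and its counterpart with the same gap had 23.8. Smarcd3, a cardiac subunit of the BAF chromatin remodeller, had 3 blocks and a fold of 65.8 against 48.8. Terf2, a telomere-binding protein, had 64.2 against 11.6, and Ppp1r9b, which encodes spinophilin, 65.8 against 35.5. In these 4 genes the control fold was the larger one, which follows in part from the choice of the largest control folds.

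In the knockout list the largest folds were in Wnt11, Klc3, Znhit6, Sulf1, Tfeb and Fermt2. Wnt11, a noncanonical Wnt ligand active in heart development, had blocks of 196 and 525 bases and a fold of 193, and its control counterpart was 1 block of 331 bases with a fold of 5.04. Klc3, a kinesin light chain, had 4 blocks with the same gaps in both lists and folds of 149 and 49.7. Tfeb, a regulator of lysosome genes, had identical blocks of 257 and 74 bases in both lists and folds of 115 in the knockout and 12.7 in the control list. Sulf1, a heparan sulfate endosulfatase, had 1 peak of 16 and 1153 bases (fold 125) where the control list had 2 single-block peaks of 630 and 301 bases (folds 16.0 and 5.51). That the knockout folds given here were the larger ones follows in part from the choice of the largest knockout folds. The input reads behind a fold are not in the lists.

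Gene groups differed widely in how many of their peaks were multi-block. Counts are of peaks, beside 21.2% over all control and 23.3% over all knockout peaks, and the groups were chosen with results of these data known. In genes of SR and hnRNP splicing proteins, 31 of 57 control peaks (54.4%, interval 40.7 to 67.6) and 34 of 60 knockout peaks (56.7%) were multi-block. Hnrnpu had blocks of 815 and 25 bases in the control list and of 845 and 25 in the knockout list, with folds of 11.8 and 19.1. Hnrnpd had blocks of 547 and 22 bases in both, with folds of 16.4 and 20. Of these, 1 of 31 and 1 of 34 lacked a counterpart, where 13% of all control and 22.4% of all knockout multi-block peaks did.

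Genes of the exon junction complex and of nonsense-mediated decay were close to that level. In them 20 of 39 control peaks (51.3%) and 24 of 46 knockout peaks (52.2%) were multi-block, and 0 of the 20 and 3 of the 24 (12.5%) lacked a counterpart, beside 13% and 22.4% of all multi-block peaks. Acin1, an exon junction complex factor, had a 2-block peak with folds of 8.41 and 12.5, among 5 multi-block peaks in each list. Among the m6A writers, erasers and readers, 21 of 61 control (34.4%) and 18 of 61 knockout peaks (29.5%) were multi-block, and the interval of the knockout share (18.5 to 42.6) included that over all peaks. Hnrnpa2b1, a proposed nuclear reader, had a peak of 3 blocks in the control and 4 in the knockout list. Prrc2a, a reader, had a 2-block peak in each, among 3 multi-block peaks of up to 3 blocks.

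Sarcomere and Z-disc genes had 51 of 112 multi-block peaks in the control (45.5%, 36.1 to 55.2) and 53 of 92 in the knockout list (57.6%, 46.9 to 67.9). The number of multi-block peaks was nearly the same, and the lists differed in single-block peaks, of which the control list had 61 and the knockout list 39. Most of this difference lay in Ttn, which encodes titin, the giant spring of the sarcomere. It had 21 control and 4 knockout peaks, all with 1 block, and 17 of the 21 lacked a counterpart. Without Ttn, an alternative added after the data were seen, multi-block peaks were 51 of 91 (56%, 45.2 to 66.4) and 53 of 88 (60.2%, 49.2 to 70.5), and single-block peaks without a counterpart were 7 of 40 and 0 of 35. Among all single-block peaks of the lists the shares without one were 26.9% and 25.1%. Of the multi-block peaks 5 of 51 and 4 of 53 lacked a counterpart, against 13% and 22.4% of all multi-block peaks of the lists.

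In calcium handling and ion channel genes 19 of 77 control (24.7%) and 17 of 54 knockout peaks (31.5%) were multi-block, and single-block peaks without a counterpart numbered 31 of 58 and 6 of 37. Over all single-block peaks 26.9% and 25.1% lacked one. Hrc, a calcium-binding protein of the sarcoplasmic reticulum, had blocks of 2085 and 63 bases in the control list, and Jph2, which holds that membrane to the T-tubule, crossed the same gap of 34023 bases in both lists, with 5 blocks and a fold of 4.37 (control) and 3 blocks and a fold of 4.72 (knockout). Cardiac transcription factor genes were at 11 of 48 (22.9%) and 8 of 48 (16.7%), and all 11 and all 8 had a counterpart. The upper limits for the share without one, 28.5% and 36.9%, lay above the 13% and 22.4% of all multi-block peaks. Srf, a factor for muscle genes, had 2 multi-block peaks in the control list whose counterparts each had 1 block.

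Nuclear genes for oxidative phosphorylation had few and narrow peaks that were often multi-block, 18 of 47 in the control (38.3%) and 33 of 66 in the knockout list (50%). None of the 18 control peaks lacked a counterpart (upper limit of the interval 18.5%), and 12 of the 33 knockout peaks did (36.4%, 20.4 to 54.9). These intervals include the 13% and 22.4% of all multi-block peaks. These 12 lay in 12 genes, were the only peak of their gene in 9 and had folds of 1.41 to 3.05. Besides Ndufb1 they included Sdhc, Sdha and Sdhd of complex II and Uqcrc1 and Uqcrc2 of complex III, named after their values were seen, with folds of 2.89, 2.57, 1.67, 3.05 and 1.61. Single-block peaks of the group lacked a counterpart in 7 of 29 control and 14 of 33 knockout cases. The control count was near the 26.9% of all control single-block peaks, and the knockout one stood beside 25.1%. Atp5g3, an ATP synthase subunit, was shared with the same 3 blocks of 85, 106 and 19 bases and folds of 4.18 and 5.98.

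Cytosolic ribosomal protein genes had 4 multi-block peaks of 23 in the control (17.4%, 4.95 to 38.8) and 14 of 42 in the knockout list (33.3%, 19.6 to 49.5). Of the 14 knockout peaks, 9 in 8 genes lacked a counterpart (64.3%, 35.1 to 87.2, beside 22.4% of all knockout multi-block peaks), with folds of 2.29 to 24.4. Only 2 of the 9 were strong, and their log10 q ran from -36 to -2.37. Among all knockout multi-block peaks, 37.4% lacked a counterpart between log10 q -3 and -10 and 70.7% above -3. From 150 to under 300 bases it was 34%. The group was not compared at like width or strength. Rpl26 had 2 of the 9 peaks, with folds of 2.29 and 15.9, and Rpl38 had a 3-block peak with a fold of 20.6, the latter named after its values were seen. Of the single-block peaks of the group, 2 of 19 control and 11 of 28 knockout ones lacked a counterpart. All single-block peaks of the lists were at 26.9% and 25.1%. Rps19 had a 2-block peak with the same gap in both lists and folds of 6.42 and 3.96. Ribosomal protein genes have many processed pseudogenes, which can draw reads, so these values are uncertain.

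Collagen genes had 38 of 79 multi-block peaks in the control (48.1%) and 58 of 110 in the knockout list (52.7%). Of these, 4 of 38 (10.5%) and 20 of 58 (34.5%, 22.5 to 48.1), the latter in 17 genes, lacked a counterpart, beside 13% and 22.4% of all multi-block peaks. Collagen single-block peaks without a counterpart were 4 of 41 and 24 of 52, beside 26.9% and 25.1% of all single-block peaks. Both kinds of collagen peak were thus more often found in the knockout list alone than in the control list alone. Of the 20 knockout multi-block peaks without a counterpart, 4 were strong, and log10 q ran from -24.4 to -1.44. Among all knockout multi-block peaks, 71.4% lacked a counterpart under 150 bases and 34% from 150 to under 300 bases. From 300 to under 600 bases it was 4.46%. Collagen peaks without a counterpart were not compared at like width or strength. Fibroblast and matrix markers, of which Col1a1 and Col3a1 are members too, had 11 of 38 (28.9%) and 19 of 45 (42.2%), and 6 against 12 of 18 genes had a multi-block peak. The levels of these transcripts are not in the lists, and their part in the counts was not tested. Endothelial markers were at 8 of 32 (25%) and 12 of 40 (30%), with Kdr, a VEGF receptor, at blocks of 9 and 802 bases in the control and 9 and 1042 in the knockout list. Fatty acid oxidation genes were at 14 of 43 (32.6%) and 14 of 36 (38.9%).

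Gene families known for a long exon that holds most of the coding sequence stood at the other end. The Zfp zinc finger genes had 65 multi-block peaks of 748 in the control (8.69%, 6.77 to 10.9) and 60 of 693 in the knockout list (8.66%, 6.67 to 11). The protocadherin genes had 0 of 111 and 0 of 95, for which the upper limits of the exact intervals are 3.27% and 3.81%. Peaks of the same widths over all genes would hold 20.7% and 23.4% multi-block ones. Replication-dependent histone and mitochondrially encoded genes, which have no introns, had no multi-block peak among 5 and 3 control and 6 and 4 knockout peaks.

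**Figure D5:**
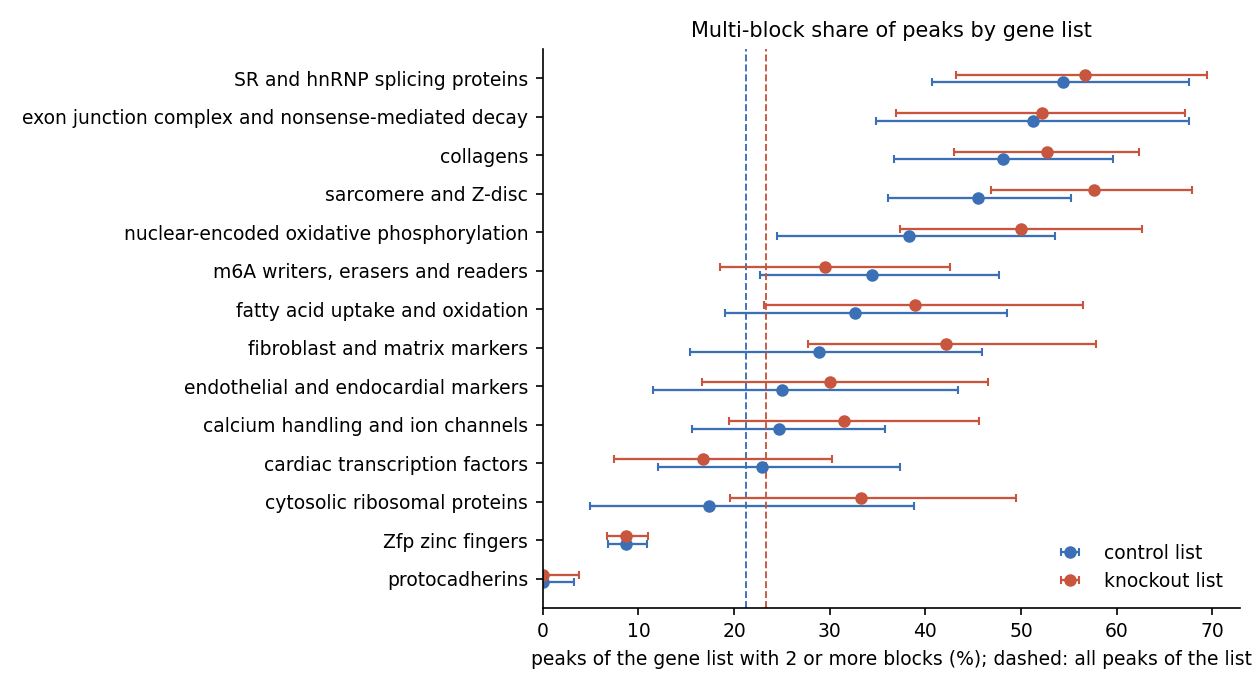
Percent of the peaks of each gene group that have 2 or more blocks, in the control list (blue) and the knockout list (red), with exact 95% binomial intervals, and dashed lines at 21.2% and 23.3% for all peaks of each list. Splicing protein genes lie highest in the control list, at 54.4%, and sarcomere genes in the knockout list, at 57.6%, while Zfp genes and protocadherins lie lowest in both, at 8.69% and 0% in the control list.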

How the data were processed

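MeRIP-seq was run on 1 IP and 1 input library of each genotype, with RNA pooled from 7 and 8 hearts. Per the series' design text, the authors called each IP against its own input with exomePeak 2.16.0 and kept peaks with q up to 0.05. The submitters' processing notes name build GRCm39 and, with no role given, BWA 0.7.12, HOMER 4.9.1 and fastp 0.19.11. The authors' p-value of a peak stands in the deposited score column, and their log10 p and log10 q, some at minus infinity, were treated as a score by the authors' caller. Fold enrichment is the authors' ratio on a linear scale. The deposited block counts, sizes and starts gave widths and gaps. The lists hold no read counts, so depth could not be corrected for.

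Members and gene groups were chosen with earlier results of these data known. Genes were named by a rule: Wtap, the peaks with most blocks, largest fold, longest gap or smallest log10 p of each class, the genes with most multi-block peaks, and the 2 strongest per group and list. Patterns for ribosomal and oxidative phosphorylation genes were narrowed after their matches were seen, to drop kinases and assembly factors. RefSeq (GRCm38.p6) gave gene types and synonyms for 11462 of 12159 symbols; its coordinates were not used. Results for some single genes are left out of the text. Intervals of 95% are exact (Clopper-Pearson) for shares and by order statistics for medians. Python 3.11.15, numpy 2.4.6, pandas 2.3.3, scipy 1.17.1 and matplotlib 3.10.9 were used. Overlap and gap matching was tested on simulated data with known counterparts. Alternatives were stricter q and fold, minimum gap and block sizes, 1 peak per gene, protein-coding genes, equal list lengths, width classes and other overlap rules.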

Additional observations from a re-analysis of the deposited data

How the results depend on the processing

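With 1 pooled pair per genotype, no difference between the lists has a replicate check, and depth is unknown. No paired analysis was possible because each group has 1 library. Of 224 alternative values for 46 results, 150 moved by less than their interval, 63 moved further and 11 reversed; the cause was not tested unless the alternative's construction shows it. More multi-block peaks were found in the knockout list alone than in the control list alone under every alternative run but 1, the widest quartile of multi-block peaks, where 24 control and 9 knockout peaks lacked a counterpart.

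The share of multi-block peaks (control, then knockout) was 22.8% and 25.1% at q at or under 0.001, 22.5% and 25% with 1 peak per gene, 18.9% and 20.8% with 2 blocks of at least 10 bases and 14.9% and 16.8% with 2 of at least 30; in the knockout list it was 24.2% at a fold of at least 4 and 24% in protein-coding genes. A smallest block under 30 bases was found in 40.1% and 38.8%. A gap in common was found in 83.9% and 83.2% with blocks of at least 10 bases, 88.9% and 88.3% with at least 30, 82.7% of knockout peaks at q at or under 0.001 and 78.8% of control peaks with 1 per gene.

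The median fold of multi-block minus single-block peaks was, in the control list, -0.94 with 1 peak per gene, -0.61 at a fold of at least 4, and -0.82, -0.88 and -1.40 in the first, the third and the fourth width quartiles of multi-block peaks. In the knockout list the order reversed with 1 peak per gene (-0.15), at a fold of at least 4 (-0.45) and in the first (-0.60) and the fourth (-0.80) width quartiles, and it was 0.64 in the third.

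The share of multi-block peaks without a counterpart (control, then knockout) was 22.6% and 31.4% at a fold of at least 4, 9.23% and 16.8% with 1 peak per gene, 10.9% and 20.7% with blocks of at least 30 bases, 9.62% and 16.5% in genes with a peak in both lists, and 4.30% and 4.63% in strong peaks. From the first to the fourth width quartile it was 32.2%, 11.9%, 6.42% and 2.15% for control and 59.9%, 26.9%, 7.18% and 0.71% for knockout peaks. Minus the single-block share, in percentage points, it was in the control list -11.5 at a fold of at least 4, -12.1 with 1 peak per gene, -15.3 with blocks of at least 30 bases, -10.3 in genes with a peak in both lists, -6.07 in strong peaks and -15.4, -6.71 and -2.77 in the first, the third and the fourth quartiles. In the knockout list it was -0.39 at a fold of at least 4, -0.98 at q at or under 0.001, -4.52 with blocks of at least 30 bases and -0.17 and -0.92 in the third and the fourth quartiles, and it reversed to 0.86 in strong peaks and to 7.13 and 3.31 in the first and the second quartiles.

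The 3′ block was the longer one in 86.4% of strong control-only, 29% of strong knockout-only and 61.6% of strong shared control peaks. The multi-block share of 5′ most minus 3′ most peaks was 10.8 and 13.3 points in genes with exactly 2 peaks. Against all peaks of the list, the control share of cardiac transcription factors reversed to -0.26 points at like width and -1.03 at q at or under 0.001, where ribosomal proteins reversed to 0.76 and endothelial markers to -0.55. Protocadherins were at -22.8 and -25.1 points at q at or under 0.001 and -23.4 in the knockout list at like width.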

Other observations

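Long noncoding RNAs carried multi-block peaks at shares close to that of all peaks, 124 of 601 control peaks (20.6%) and 114 of 544 knockout peaks (21%), and the genes in this paragraph were chosen after their values were seen. H19, an imprinted RNA abundant in fetal tissue, had blocks of 1315 and 95 bases at the same positions in both lists, with a control fold of 6.91 and a knockout fold of 12.1; another peak of the same list overlaps it on the same strand. Mhrt, which is transcribed antisense to Myh7, had 3 blocks of 143, 66 and 472 bases in both lists and folds of 5.61 and 10.8. Neat1, the scaffold of paraspeckles, had a 2-block knockout peak of 552 and 1471 bases with a fold of 15.6, where the overlapping control peaks each had 1 block. Peaks of pseudogenes were seldom multi-block, 6 of 327 (1.83%) and 7 of 441 (1.59%).

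Some gaps were far longer or shorter than the rest. The longest lay in an Fgfr2 peak of the knockout list, with blocks of 210, 104 and 136 bases and a gap of 2815492 bases, and its control counterpart had 2 blocks with 1 gap in common. Whether so long a gap lies within 1 transcript was not tested, and the peak is given as deposited. Tshz2, a teashirt zinc finger gene, had a gap of 249746 bases in both lists. At the other end, Lamb2 and Cpt1b each had a knockout peak with a gap of 2 bases. Of the peaks without a counterpart, those with most blocks included Col16a1 with 7 blocks and Colq with 6 in the knockout list, and Col9a2 and Kifc3 with 5 each in the control list, all at a log10 q between -8.13 and -2.63.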
